A study of Mus musculus with 6 samples.

Results

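The genes described here are 34 genes of the autophagy machinery, read from a table of 34745 mouse genes by matching the gene name column to a list of 15 initiation genes, 16 conjugation genes and 3 cargo receptor genes. They were measured by RNA sequencing in RAW 264.7 cells, a virus-transformed mouse macrophage line kept in DMEM with fetal bovine serum. The control group was 3 libraries from cells given the solvent DMSO, and the treated group was 3 libraries from cells given BPAP (bisphenol AP), a relative of the plastics monomer bisphenol A. The study asked how BPAP alters gene expression in macrophages. Neither the dose of BPAP nor the exposure time was given in the sources used here, nor the genotype of the line beyond its name. All libraries come from this 1 cell line, and the labels do not say whether they were separate cultures, so p-values measure the spread between libraries, which may be technical.

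Autophagy encloses cytoplasm in a double membrane, the autophagosome, which then fuses with a lysosome. The ULK1 kinase complex and a class III PI3-kinase complex start the membrane, ATG9A and ATG2 proteins supply it with lipid, and WIPI proteins read the PI3P mark. A ubiquitin-like cascade (ATG7, ATG3, ATG10, ATG5, ATG12, ATG16L1) then attaches LC3 and GABARAP proteins to the membrane, where cargo receptors dock, and ATG4 proteases process these proteins and remove them again. In macrophages the same conjugation proteins also act on phagosomes and limit inflammatory signalling.

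Library totals ranged from 11084705 to 13806559 counts, and 3 counts corresponded to 0.211 to 0.275 counts per 1000000 (CPM, scaled by TMM), a limit that covers counting error only. All 10 macrophage markers examined had counts in every library, with a summed level of 4552 to 5169 CPM in DMSO and 5078 to 5494 CPM in BPAP. Markers of fibroblasts, epithelial cells and T cells reached at most 12, 1 and 5 counts in any library, and Pdgfra, Dcn, Lum, Epcam, Cdh1, Krt18, Krt19, Cd3e, Cd3g and Cd8a were at 0. DMSO replicate 1 and BPAP replicate 2 stood apart from the other libraries of their groups: the chi-square per degree of freedom was 17.3 to 20.0 for pairs that held one of them and 6.64 and 8.31 for the remaining pairs. Results that depend on 1 library are given with and without it.

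Of the 34 genes, 33 passed the filter on low counts. Optn, which encodes the receptor optineurin, did not pass it, with 0 counts in each DMSO library and 1, 2 and 0 counts in the BPAP libraries. In edgeR's quasi-likelihood test, Benjamini-Hochberg adjusted over 11711 genes, 11 of the 33 genes (33.3%) passed an adjusted p of 0.05, against 31.7% of all genes. Higher in BPAP were 4 of them, Atg101, Map1lc3a, Gabarap and Gabarapl2 (12.1%, against 16.2% of all genes). Lower in BPAP were 7, Ulk1, Rb1cc1, Atg9a, Atg2a, Atg16l1, Atg4a and Tax1bp1 (21.2%, against 15.5% of all genes). The share of autophagy genes that passed was thus near that of all genes, and their median log2 fold change was -0.01 (all genes 0.02). The values of the groups did not overlap for 22 of the 33 genes, and for 49.0% of all genes. Exons of Rb1cc1, Becn1, Atg9a, Atg2b, Atg16l2, Map1lc3b and Atg4d overlap a gene on the opposite strand, whose reads cannot be told apart without a stated strand setting. Because these are bulk libraries, fewer cells expressing a gene and less RNA of it per cell cannot be told apart.

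**Figure D1:**
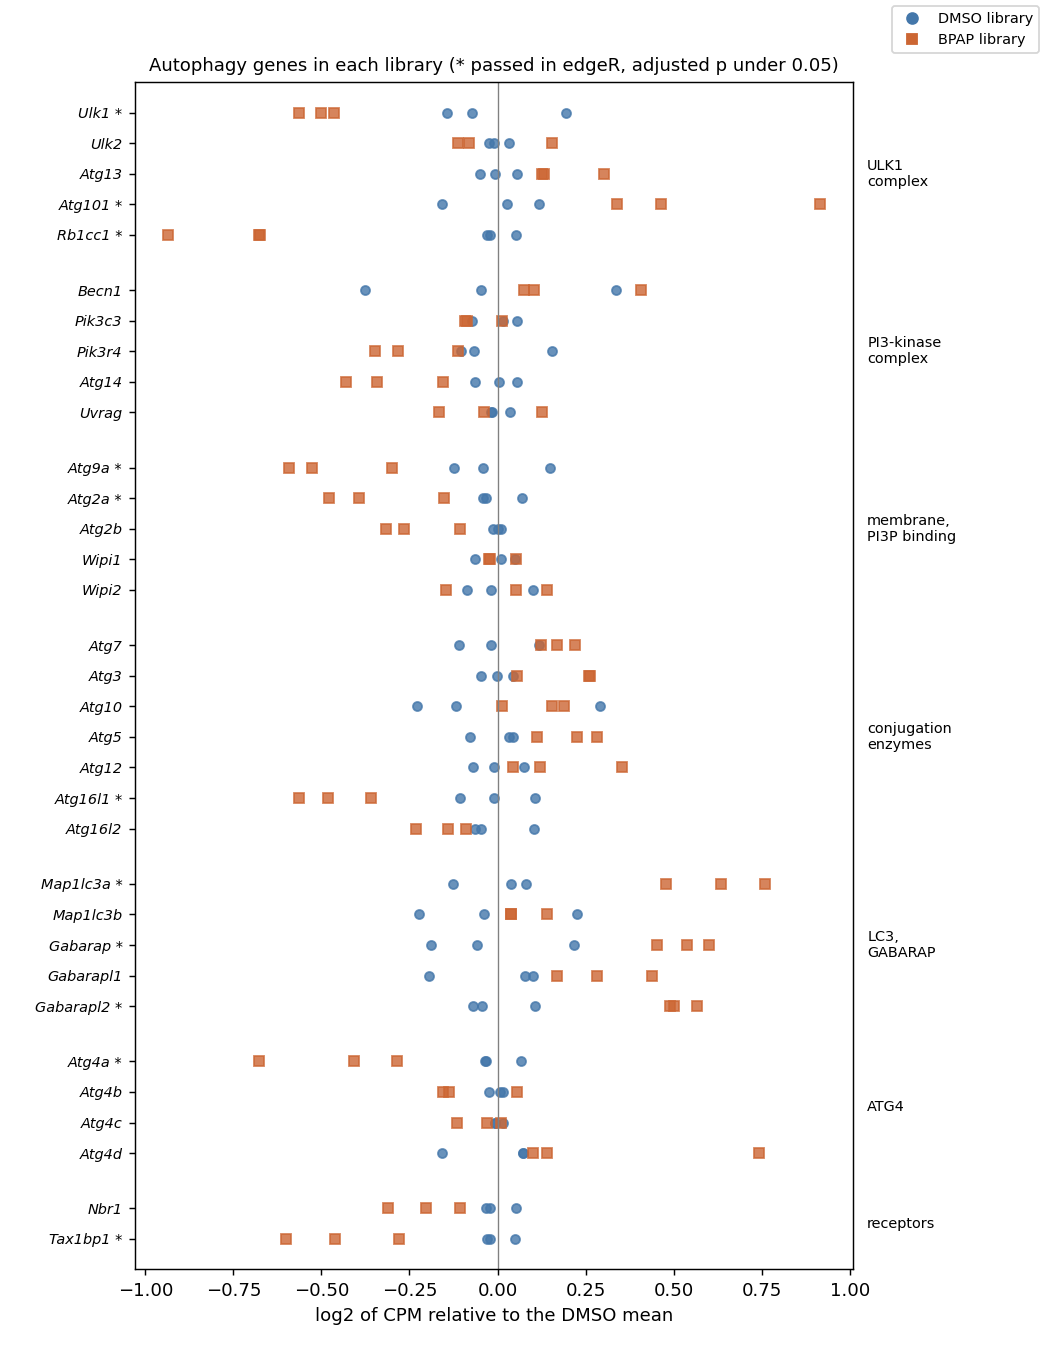
The log2 of CPM in each library relative to the DMSO mean (horizontal axis) is drawn for the 33 tested autophagy genes, with circles for the 3 DMSO libraries and squares for the 3 BPAP libraries. For Rb1cc1 every square lies to the left of every circle, for Gabarapl2 every square lies to the right, and for Becn1 the symbols are mixed.

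Fold changes in these libraries followed exon length. Across all tested genes the log2 fold change had a Spearman correlation of -0.40 with merged exon length (11665 genes of the same 6 libraries), and across the 33 autophagy genes it was -0.57. With GC content the correlation was 0.25 across all genes and 0.18 across the autophagy genes. When the genes were divided by length into 10 equal classes, the shortest class (up to 1582 bases of exon) had a median log2 fold change of 0.35, with 36.5% of genes higher and 3.77% lower. In the longest class, from 9629 bases, the median was -0.29, with 2.48% higher and 43.9% lower. All 4 autophagy genes that rose lie in the 3 shortest classes, and Rb1cc1 and Tax1bp1, both among those that fell, lie in the longest. Length-corrected values are therefore given as well, from the same edgeR test after removing, library by library, the trend of counts with exon length and GC content. What is called length correction below thus includes GC content, and the part of each in a gene's change was not tested. With it 22.7% of all genes passed (11.8% higher, 10.9% lower), and the correlation with length was 0.05 across all genes and -0.19 across the autophagy genes.

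In the length-corrected fit 2 autophagy genes were higher, Gabarapl2 and Atg12, and 5 were lower, Ulk1, Atg14, Atg9a, Atg16l1 and Atg4a. The genes that passed both ways were 5: Gabarapl2, which rose, and Ulk1, Atg9a, Atg16l1 and Atg4a, which fell. Of the 7 genes, Ulk1, Atg9a and Atg4a passed in all 6 length-corrected fits that left out 1 library. The median log2 fold change over the 33 genes was 0.03 in the length-corrected fit with all libraries. These calls rest on merged exon length and GC content, and some differed when the length implied by the deposited FPKM values was used instead. What gives rise to the length trend was not tested.

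**Figure D2:**
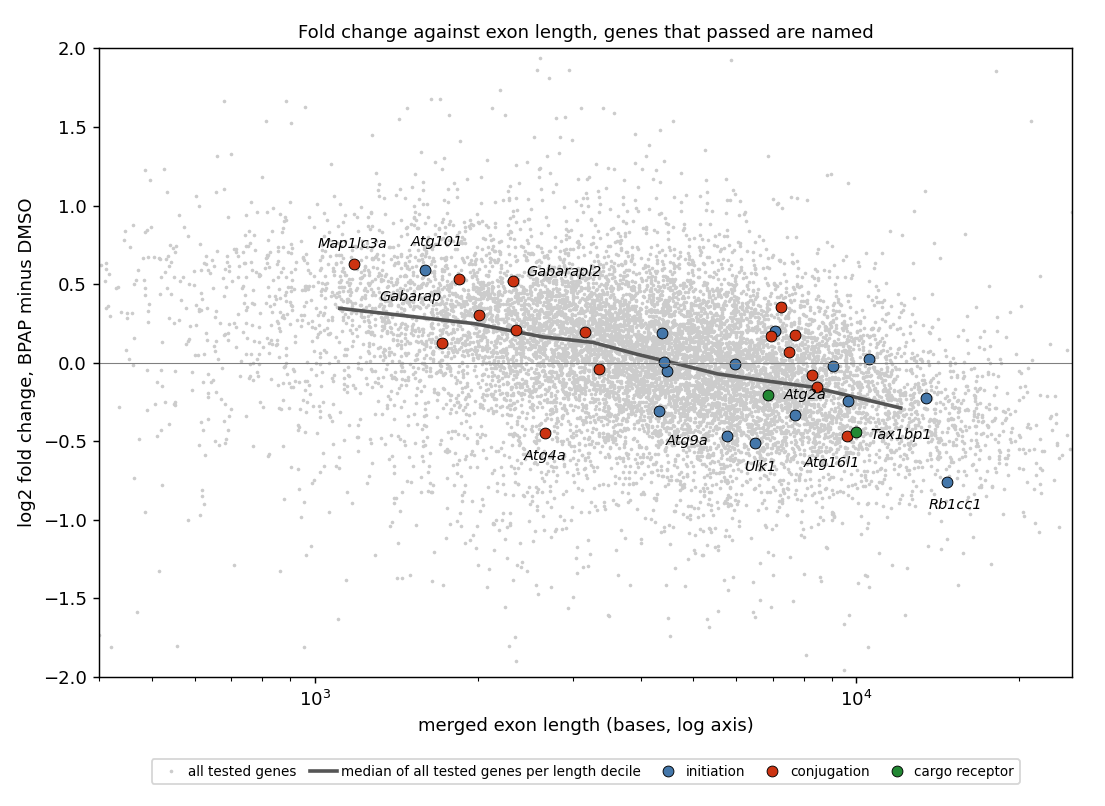
The log2 fold change, BPAP minus DMSO, is drawn against merged exon length in bases on a log axis, with grey points for all tested genes, a line through the medians of the 10 length classes and coloured points for the autophagy genes by step (100 genes beyond 2 log2 units or outside 400 to 25000 bases are not drawn). The line falls from 0.35 to -0.29, Map1lc3a and Atg101 lie above its short end, Rb1cc1 lies at its long end, and Atg4a lies well below it among short genes.

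Promoter sequence could be matched for 28 of the 34 genes, with 32 start sites in RefSeq (GRCm38.p6), each covering 250 bases before to 50 bases after the start. The windows were searched on both strands for CACGTG (the E-box), TCACGTGA (the CLEAR core bound by TFEB and TFE3, which holds an E-box), TGATGNAA (a core bound by ATF4 with its partners) and TGACNNNGC (the antioxidant response element core). An E-box stood in 4 of the 32 windows (12.5%), those of Atg14, Atg3, Atg5 and Atg7, and in 7.15% of 32851 promoters of the same length. The CLEAR core stood in the Atg3 window alone of these, and in 0.974% of all promoters. The antioxidant response element core stood in 4 windows (12.5%), those of Atg13, Map1lc3b, Tax1bp1 and Ulk2, and in 12.4% of all. The ATF4 core stood in 0 of the 32 windows and in 3.97% of all promoters. A match is a description of letters and not a bound site. Of the genes with an E-box in the window, Atg14 passed with length correction and 0 passed without it.

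The upstream sequences shown, each ending at or before the first base of the gene in the deposited table, are those of 3 genes that passed both ways and, because it holds the CLEAR core, of Atg3. They run 5′ to 3′ along the gene's strand in GRCm38.p6, and capitals mark the first E-box and the CLEAR core of Atg3, which holds its second E-box. Ulk1 is at chr5:110810098-110810331 on the minus strand, Atg4a at chrX:140956657-140956906, Gabarapl2 at chr8:111940453-111940702 and Atg3 at chr16:45158579-45158784, all 3 on the plus strand.
Ulk1: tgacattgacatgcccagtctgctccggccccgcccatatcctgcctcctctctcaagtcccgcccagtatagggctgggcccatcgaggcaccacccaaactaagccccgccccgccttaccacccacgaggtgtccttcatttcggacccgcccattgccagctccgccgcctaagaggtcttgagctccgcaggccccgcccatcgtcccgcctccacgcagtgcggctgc
Atg4a: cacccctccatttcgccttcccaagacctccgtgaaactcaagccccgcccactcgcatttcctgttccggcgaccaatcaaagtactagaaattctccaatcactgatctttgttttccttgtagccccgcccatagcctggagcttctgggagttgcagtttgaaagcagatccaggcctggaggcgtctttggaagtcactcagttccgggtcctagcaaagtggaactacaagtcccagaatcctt
Gabarapl2: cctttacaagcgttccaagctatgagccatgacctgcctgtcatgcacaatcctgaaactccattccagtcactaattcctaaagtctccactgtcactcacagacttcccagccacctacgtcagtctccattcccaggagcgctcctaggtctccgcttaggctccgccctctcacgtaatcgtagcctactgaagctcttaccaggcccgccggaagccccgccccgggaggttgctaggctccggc
Atg3: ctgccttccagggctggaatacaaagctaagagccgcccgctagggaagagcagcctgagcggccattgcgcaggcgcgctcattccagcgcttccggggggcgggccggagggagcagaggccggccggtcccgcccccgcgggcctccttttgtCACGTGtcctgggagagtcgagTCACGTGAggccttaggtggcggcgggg
The E-boxes of Atg3 stand 94 and 71 bases before its RefSeq start. The sequences of Ulk1, Atg4a and Gabarapl2 hold none of the 4 motifs. Median GC content of the 250 upstream bases was 59.2% over the autophagy windows and 52.4% over all promoters.

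Of the 15 initiation genes, 1 rose (6.67%, against 16.2% of all genes) and 4 fell (26.7%, against 15.5%), and the log2 fold changes had a median of -0.05. With length correction 0 rose and 3 fell, where 11.8% of all genes rose and 10.9% fell, and the median was -0.07. The kinase gene Ulk1 and the lipid scramblase gene Atg9a fell in both fits.

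Ulk1 (chr5:110784488-110810097) encodes the kinase that starts autophagosome formation under the control of mTORC1 and AMPK. It had 86.1, 71.6 and 68.1 CPM in the DMSO libraries and 53.1, 50.9 and 54.5 CPM in the BPAP libraries. Every BPAP library lay below every DMSO library, and DMSO replicate 1 was the highest. It fell by 0.51 on the log2 scale (SE 0.11, edgeR adjusted p = 0.00647), and by 0.43 (SE 0.10, adjusted p = 0.0190) with length correction. Ulk2, the related kinase gene, had 47.3, 47.7 and 49.1 CPM in DMSO and 53.5, 45.4 and 44.5 CPM in BPAP, a log2 difference of -0.01 (SE 0.10, edgeR adjusted p = 0.961). The Ulk2 groups overlapped, and the length-corrected difference was 0.05. The ratio of Ulk1 to Ulk2 counts, genes of similar exon length (6488 and 5977 bases), was 1.57 ± 0.225 (SD, n = 3) in DMSO and 1.11 ± 0.117 in BPAP without overlap (exact permutation test, 2-sided p = 0.1, the smallest that 3 against 3 libraries allow, and 0.156 adjusted over 14 pairs of related genes). The groups did not overlap for 9 of these 14 pairs.

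Rb1cc1 (chr1:6206197-6276648) encodes FIP200, the large scaffold of the ULK1 complex, and has the longest exons of the group at 14690 bases. Its values were 59.4, 56.1 and 56.5 CPM in DMSO and 35.9, 30.0 and 35.8 CPM in BPAP. The groups were far apart, and the spread within each was small. It fell by 0.76 on the log2 scale (SE 0.10, edgeR adjusted p = 0.00112), the most of the 33 genes, but with length correction the difference was -0.14 (SE 0.09, adjusted p = 0.272) and it did not pass. Rb1cc1 also has the lowest GC content of the group, 38.8%, and that fit removes the GC trend too. How much of the shift belongs to length and how much to GC content was not tested.

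Atg101 (chr15:101284301-101290934) encodes a partner that stabilises ATG13 in the same complex. It had 14.0, 16.9 and 15.8 CPM in DMSO and 21.5, 29.4 and 19.7 CPM in BPAP. All BPAP libraries were above all DMSO libraries, with BPAP replicate 2 highest. It rose by 0.59 on the log2 scale (SE 0.16, edgeR adjusted p = 0.0194). The difference was 0.28 (adjusted p = 0.149) with length correction, and Atg101 did not pass without DMSO replicate 1 (adjusted p = 0.0829) or DMSO replicate 3 (0.0530). Atg13, the gene of its partner, had 114, 119 and 111 CPM in DMSO and 125, 141 and 125 CPM in BPAP, a log2 difference of 0.19 (SE 0.09, edgeR adjusted p = 0.126) without overlap between groups, and 0.12 with length correction (adjusted p = 0.276).

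Of the 5 class III PI3-kinase genes 0 passed the edgeR test, with adjusted p-values from 0.0507 to 0.877, 1 had an unadjusted p under 0.05 (Atg14), and Atg14 was also the 1 gene called by limma-voom and by limma-trend, against 0 by DESeq2. Pik3c3, the catalytic subunit, and Pik3r4, its regulatory subunit, had log2 differences of -0.05 and -0.24, or -0.07 and -0.10 with length correction. Becn1, the scaffold beclin 1, had 44.4, 72.8 and 55.9 CPM in DMSO and 76.6, 60.8 and 62.0 CPM in BPAP, with overlapping groups and the widest DMSO spread of the complex. Uvrag, the subunit of the form that acts on endosomes, had 89.8, 89.5 and 92.9 CPM in DMSO and 80.8, 98.9 and 88.3 CPM in BPAP, which overlapped as well. The log2 differences of Becn1 and Uvrag were 0.20 and -0.02, or 0.28 and 0.11 with length correction, and neither passed. Atg14, the subunit that directs the complex to sites of autophagosome formation, had 42.6, 40.6 and 44.1 CPM in DMSO and 31.5, 33.5 and 38.1 CPM in BPAP. Every BPAP value of Atg14 lay below the DMSO values. Its log2 difference was -0.30 (SE 0.11, edgeR adjusted p = 0.0507), and with length correction it fell by 0.36 (SE 0.10, adjusted p = 0.0284). In the length-corrected fits without 1 library Atg14 passed in 1 of 6, that without BPAP replicate 3 (adjusted p = 0.0235 to 0.0895).

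Of the 5 genes for membrane supply and PI3P binding, Atg9a and Atg2a fell. Atg9a (chr1:75180860-75192196), the scramblase carried in vesicles that seed the membrane, had 131, 115 and 109 CPM in DMSO and 82.0, 96.0 and 78.5 CPM in BPAP. The highest BPAP library remained below the lowest DMSO library. It fell by 0.47 on the log2 scale (SE 0.11, edgeR adjusted p = 0.0101), and by 0.43 (SE 0.09, adjusted p = 0.0118) with length correction. With the length implied by the deposited FPKM values the adjusted p was 0.0643. Atg2a, which encodes a lipid transfer protein that bridges the endoplasmic reticulum and the growing membrane, had 69.9, 65.1 and 64.7 CPM in DMSO and 50.6, 59.8 and 47.7 CPM in BPAP. BPAP replicate 2 was the closest to the controls. Atg2a fell by 0.34 (SE 0.11, edgeR adjusted p = 0.0350). It did not pass with length correction (-0.22, adjusted p = 0.103), and of the 6 fits without 1 library it passed in 1, that without BPAP replicate 2 (the others 0.0716 to 0.113).

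Its paralog Atg2b had 107, 106 and 108 CPM in DMSO and 89.3, 99.8 and 86.1 CPM in BPAP. The groups did not overlap, but the log2 difference of -0.23 (SE 0.09, edgeR adjusted p = 0.0742) did not pass, and with length correction it was 0.04 (adjusted p = 0.803). The PI3P readers Wipi1 and Wipi2 had log2 differences of 0.00 and 0.02 (adjusted p = 0.988 and 0.892 in edgeR), or -0.07 and 0.19 with length correction (0.667 and 0.185). For Wipi2 the values were 85.1, 96.9 and 89.2 CPM in DMSO and 81.7, 99.7 and 93.7 CPM in BPAP, with overlap.

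**Figure D3:**
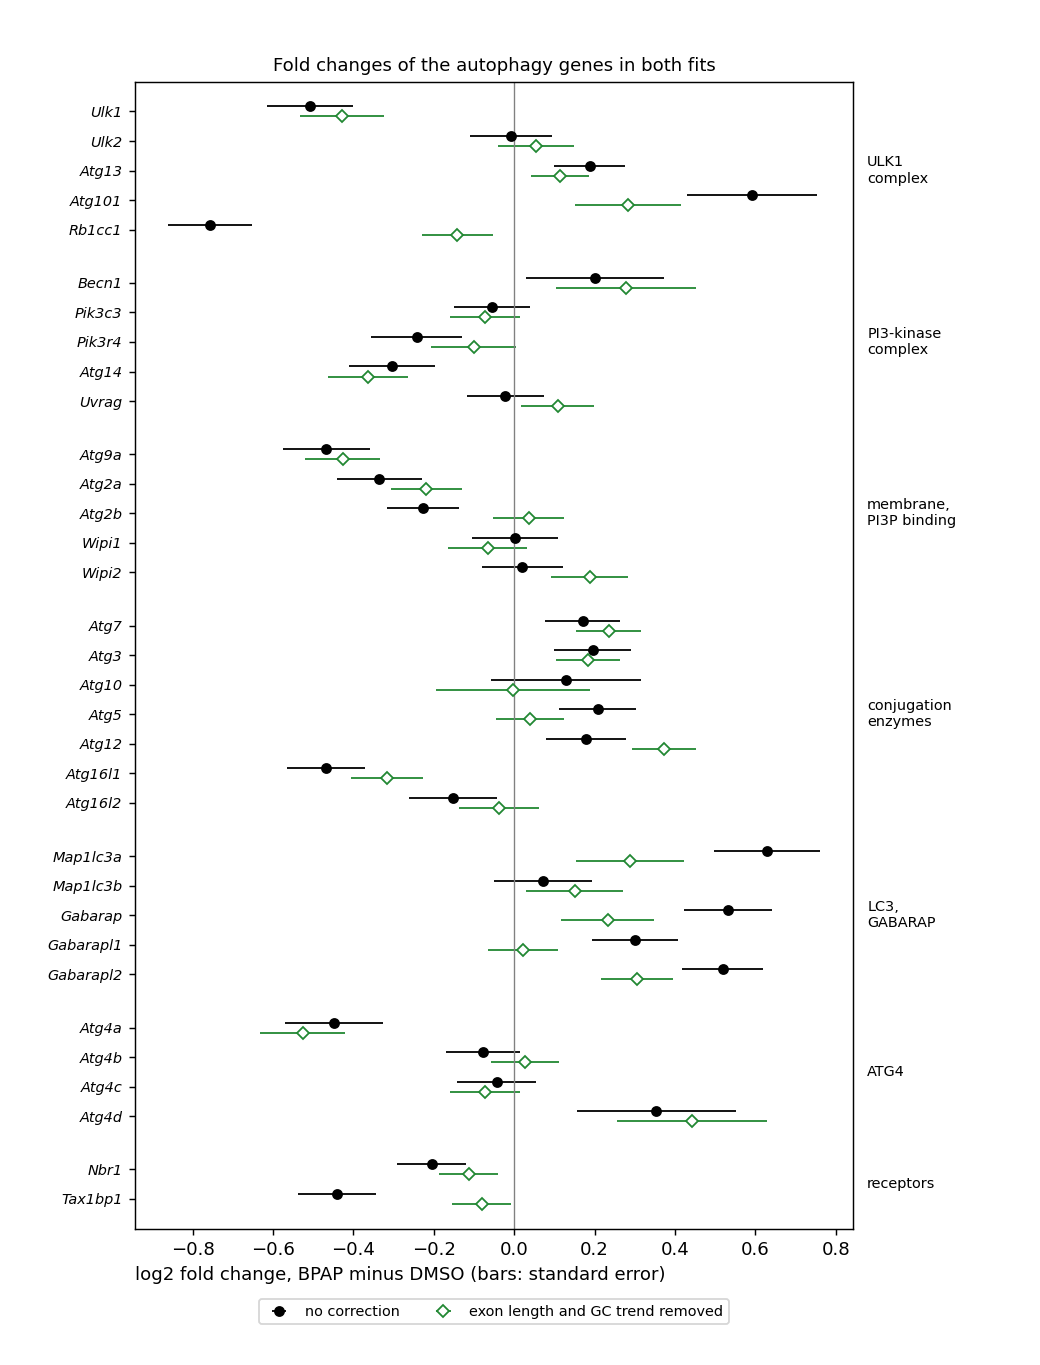
Log2 fold changes, BPAP minus DMSO, with their standard errors (bars) are drawn for the 33 tested autophagy genes by group, from edgeR without correction (filled circles) and with length correction (open diamonds). Rb1cc1 moves from -0.76 to -0.14 and Tax1bp1 from -0.44 to -0.08, whereas Ulk1 stays between -0.51 and -0.43 and Atg4a between -0.45 and -0.53.

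Of the 16 conjugation genes, 3 rose (18.8%) and 2 fell (12.5%), shares near the 16.2% and 15.5% of all genes, and the log2 fold changes had a median of 0.18. With length correction 2 rose and 2 fell, and the median was 0.10. The genes that rose without correction all encode LC3 or GABARAP proteins, and those that fell are Atg16l1 and Atg4a. The median exon length was 3252.5 bases for the conjugation genes, 6488 bases for the initiation genes and 4296 bases for all genes tested.

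Among the 7 genes of the conjugation enzymes 1 passed. Atg16l1 (chr1:87755870-87792428) encodes the protein that places the ATG12-ATG5 conjugate on the membrane and so sets where LC3 is attached. It had 84.1, 89.9 and 97.4 CPM in DMSO and 64.8, 61.2 and 70.5 CPM in BPAP. The groups were separate, with the lowest DMSO library above the highest BPAP library. It fell by 0.47 on the log2 scale (SE 0.10, edgeR adjusted p = 0.00616), and by 0.32 (SE 0.09, adjusted p = 0.0315) with length correction. In the length-corrected fits without 1 library it did not pass without DMSO replicate 2 or 3 or BPAP replicate 1 or 2 (adjusted p = 0.0629 to 0.115), nor when the length implied by the deposited FPKM values took the place of exon length (0.122). Its paralog Atg16l2 had a log2 difference of -0.15 (SE 0.11, edgeR adjusted p = 0.310), or -0.04 with length correction.

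Atg12, the ubiquitin-like protein of the first cascade, had 125, 120 and 133 CPM in DMSO and 137, 130 and 162 CPM in BPAP. BPAP replicate 2 lay among the DMSO values. The log2 difference was 0.18 (SE 0.10, edgeR adjusted p = 0.198), and with length correction Atg12 rose by 0.37 (SE 0.08, adjusted p = 0.0111). The gene has 7711 exon bases and a GC content of 44.1%, and which of these shifted the value was not tested. Atg12 passed in 5 of the 6 length-corrected fits without 1 library, not in that without DMSO replicate 2 (adjusted p = 0.0515). With the length implied by the deposited FPKM values in place of exon length, and without GC content, Atg12 did not pass. Atg7, the E1-like enzyme of both cascades, had 63.7, 70.0 and 59.8 CPM in DMSO and 70.3, 75.1 and 72.5 CPM in BPAP. Its groups did not overlap by a narrow margin, and it did not pass (0.17, SE 0.09, edgeR adjusted p = 0.186), nor with length correction (0.24, adjusted p = 0.0622). The E2-like enzymes Atg3 and Atg10 and the ATG12 acceptor Atg5 had log2 differences of 0.20, 0.13 and 0.21, none of which passed in edgeR (adjusted p = 0.143, 0.628 and 0.121). With length correction they were 0.18, -0.003 and 0.04, and none passed.

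Of the 5 LC3 and GABARAP genes, 3 rose (60.0%, against 16.2% of all genes) and 0 fell (against 15.5%). All 5 differences were above 0, with a median log2 fold change of 0.52. Map1lc3a, Gabarap, Gabarapl1 and Gabarapl2 lie in the 3 shortest length classes, where 36.5%, 30.9% and 22.3% of all genes were higher. With length correction 1 rose, where 11.8% of all genes rose and 10.9% fell. All 5 differences were again above 0, and the median was 0.23. With the length implied by the deposited FPKM values in the trend, and without GC content, Map1lc3a, Gabarap and Gabarapl2 all passed. Without DMSO replicate 1 and without length correction, the difference of Map1lc3b was -0.05. These proteins are the tags that are attached to the autophagosome membrane and bind cargo receptors.

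Gabarap (chr11:69991143-69994951) had 489, 405 and 370 CPM in DMSO and 639, 611 and 577 CPM in BPAP. DMSO replicate 1 was the highest control and still below all BPAP libraries. It rose 1.45-fold (log2 0.53, SE 0.11, edgeR adjusted p = 0.00583), and the log2 difference was 0.23 (SE 0.12, adjusted p = 0.172) with length correction. Gabarapl2 (chr8:111940703-111953612), which encodes GATE-16, had 25.8, 26.3 and 29.2 CPM in DMSO and 38.3, 40.1 and 38.1 CPM in BPAP. The BPAP libraries were close together and well above the controls. It rose 1.43-fold (log2 0.52, SE 0.10, edgeR adjusted p = 0.00468), and by 0.31 (SE 0.09, adjusted p = 0.0378) with length correction. In the length-corrected fits without 1 library Gabarapl2 passed in 0 of 6 (adjusted p = 0.0553 to 0.131).

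Map1lc3a (chr2:155276297-155278073), the LC3A gene and the shortest of the group at 1181 exon bases, had 12.2, 10.6 and 11.8 CPM in DMSO and 19.5, 17.9 and 16.1 CPM in BPAP. Again the groups did not overlap. It rose 1.55-fold (log2 0.63, SE 0.13, edgeR adjusted p = 0.00647), and the log2 difference was 0.29 (SE 0.14, adjusted p = 0.151) with length correction. Map1lc3b, the gene of the commonly assayed LC3B, had 36.4, 41.5 and 49.8 CPM in DMSO and 43.7, 46.9 and 43.7 CPM in BPAP. Its BPAP values lay inside the DMSO range (log2 0.07, SE 0.12, edgeR adjusted p = 0.686; 0.15 with length correction). Gabarapl1 had 126, 155 and 153 CPM in DMSO and 163, 196 and 176 CPM in BPAP. The Gabarapl1 groups did not overlap, but the log2 difference of 0.30 (SE 0.11, edgeR adjusted p = 0.0546) did not pass and was 0.02 with length correction.

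Per kilobase of exon, Gabarap had the highest level of the 34 genes in DMSO, 228 ± 33.3 CPM per kb (SD, n = 3), followed by Gabarapl1 with 71.9 ± 7.90. Gabarap made up 69.5 ± 4.79% of the summed LC3 and GABARAP level per length in DMSO and 72.3 ± 1.79% in BPAP, and Gabarapl1 22.2 ± 3.87% and 19.4 ± 1.84%. The shares of Gabarapl2 (3.58% and 3.66%), Map1lc3a (2.99% and 3.30%) and Map1lc3b (1.75% and 1.31%) were small in both groups. Below Gabarapl1 the order continued with Nbr1 (28.5 ± 0.944), Atg13 (26.2 ± 0.964), Tax1bp1 (21.9 ± 0.679) and Atg9a (20.5 ± 2.02), the last 2 of which overlapped within their SDs. Atg10 (3.36 ± 0.663), Atg16l2 (2.72 ± 0.174) and Atg4d (1.01 ± 0.0904) were the lowest apart from Optn. However, Atg10 overlapped within the SDs with Atg16l2, with Rb1cc1 (3.90 ± 0.122) and with Pik3r4 (4.08 ± 0.404). The divisor was the merged exons of all annotated transcripts (7517 bases for Map1lc3b), so these shares and this order depend on it. In CPM not divided by length, Map1lc3b (42.6 in DMSO) lay above Gabarapl2 (27.1) and Map1lc3a (11.5).

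Within the family, the ratio of Map1lc3a to Map1lc3b counts was 0.276 ± 0.052 in DMSO and 0.399 ± 0.0424 in BPAP without overlap (exact permutation p = 0.1, adjusted 0.156). These 2 genes differ greatly in exon length (1181 and 7517 bases). The ratio of Gabarap to Gabarapl2 was 15.7 ± 3.16 in DMSO and 15.7 ± 0.847 in BPAP, with overlap (exact permutation p = 1). Of the 14 pairs of related genes compared, 9 were without overlap, and none could reach an exact p below 0.1.

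Of the 4 ATG4 protease genes, 1 fell and 3 did not pass. Atg4a (chrX:140956907-141164270), whose protease acts mainly on GABARAP proteins, had 30.7, 30.7 and 32.9 CPM in DMSO and 25.8, 19.6 and 23.7 CPM in BPAP. The control libraries were nearly equal, and every BPAP library lay below them. It fell by 0.45 on the log2 scale (SE 0.12, edgeR adjusted p = 0.0194), and by 0.53 (SE 0.11, adjusted p = 0.00892) with length correction, although it lies among short genes, whose median moved the other way. Without length correction it did not pass without DMSO replicate 2 (adjusted p = 0.0503) or DMSO replicate 3 (0.0680).

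The sequence of Atg4a-ps, a pseudogene copy, is 99.3% identical to Atg4a over 2115 bases, so reads may be split between them. Atg4a-ps had 6.38 ± 0.593 CPM in DMSO and 5.75 ± 0.212 in BPAP (log2 -0.15, SE 0.16, edgeR adjusted p = 0.510). With the counts of both summed, a choice made after values were seen, Atg4a fell by 0.39 (edgeR adjusted p = 0.0240) and, with length correction, by 0.47 (adjusted p = 0.00935). Near-identical stretches were also found in 3 other genes for Gabarapl2 and 4 for Map1lc3b. Of these, Gm5612, a match of Map1lc3b, had 0 counts in every library, and the gene IDs of the others were absent from the deposited table. Gm13961 matches Rb1cc1 over 1324 bases (95.6% identical) and its gene ID was absent from the deposited table as well. Gm29253 shares 1832 identical bases with Atg9a and had 0 to 18 counts per library. Atg2b, Uvrag, Atg14, Gabarapl1, Becn1 and Atg4d had such matches too. Among them were counted genes such as D10Wsu102e for Atg2b (1045 to 1497 counts per library) and Gga3 for Uvrag (384 to 711). Where reads of such stretches were counted is not known, so the values of all these genes are uncertain to that extent.

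Atg4b, the main LC3 protease, had 74.4, 76.0 and 76.5 CPM in DMSO and 68.8, 78.6 and 67.9 CPM in BPAP, and Atg4c had 29.5, 29.5 and 29.9 CPM against 29.1, 27.4 and 29.9 CPM. Both overlapped between groups, with log2 differences of -0.08 and -0.04 (edgeR adjusted p = 0.554 and 0.765), or 0.03 and -0.07 with length correction. Atg4d had 7.37 ± 0.657 CPM in DMSO and 9.44 ± 2.49 CPM in BPAP, a log2 difference of 0.35 (SE 0.20, edgeR adjusted p = 0.194), or 0.44 with length correction (adjusted p = 0.116). The ratio of Atg4a to Atg4c counts, genes of 2661 and 3351 exon bases, was 1.04, 1.04 and 1.10 in DMSO and 0.888, 0.717 and 0.794 in BPAP without overlap (exact permutation p = 0.1, adjusted 0.156).

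**Figure D4:**
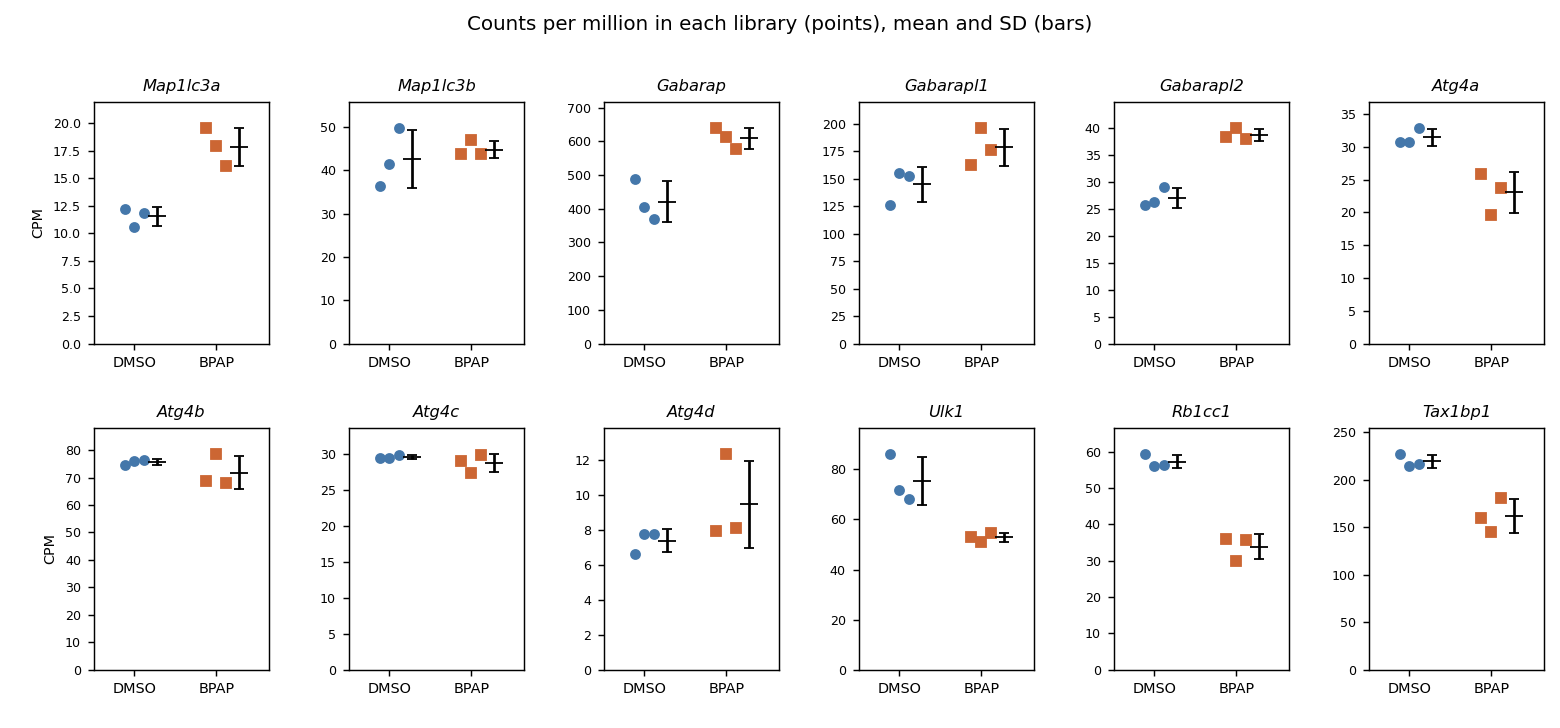
CPM in each DMSO library (circles) and BPAP library (squares), with the mean and SD as bars, are drawn for the LC3, GABARAP and ATG4 genes and for Ulk1, Rb1cc1 and Tax1bp1, each on its own axis from 0. Gabarapl2 runs from 25.8 to 29.2 CPM in DMSO and from 38.1 to 40.1 CPM in BPAP, while Map1lc3b and Atg4c overlap between groups.

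Of the 2 cargo receptor genes tested, Tax1bp1 fell and Nbr1 did not pass. Tax1bp1 (chr6:52713729-52766780) encodes a ubiquitin-binding receptor that also restrains NF-kappaB signalling. It had 227, 215 and 216 CPM in DMSO and 159, 145 and 181 CPM in BPAP. The groups were separate, with BPAP replicate 3 nearest to the controls. It fell by 0.44 on the log2 scale (SE 0.10, edgeR adjusted p = 0.00778), but the difference was -0.08 (SE 0.07, adjusted p = 0.457) with length correction. Nbr1, a receptor for ubiquitinated cargo and peroxisomes, had 203, 193 and 191 CPM in DMSO and 170, 158 and 182 CPM in BPAP. All BPAP values lay below the controls, and the log2 difference was -0.20 (SE 0.09, edgeR adjusted p = 0.0918), or -0.11 with length correction (adjusted p = 0.289).

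Of 117 further genes around the pathway 112 were tested, 27 of which rose (24.1%, against 16.2% of all genes) and 9 fell (8.04%, against 15.5%). With length correction 20 rose and 6 fell, where 11.8% of all genes rose and 10.9% fell. Of 19 other cargo receptors 6 rose (31.6%) and 0 fell. Sqstm1, which encodes the ubiquitin receptor p62, had 671, 757 and 727 CPM in DMSO and 1653, 1573 and 1107 CPM in BPAP. All BPAP libraries were far above the controls, a 2.01-fold rise (log2 1.01, SE 0.14, edgeR adjusted p = 0.00132; 0.85 with length correction). The adaptor gene Tollip (1.32-fold) and the reticulophagy receptor gene Tex264 (1.57-fold) rose too.

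Of 18 other initiation and membrane genes 3 rose (16.7%, near the 16.2% of all genes) and 0 fell: Vmp1, a scramblase of the endoplasmic reticulum (1.86-fold, edgeR adjusted p = 0.000656), Tecpr1 (1.33-fold), a lysosomal and autophagosomal tether, and Bcl2 (1.34-fold), which binds beclin 1. Of 16 fusion genes 4 rose (25.0%) and 1 fell (6.25%, against 15.5% of all genes), with the SNARE genes Vti1b (1.42-fold) and Snap29 (1.25-fold) and the tethering gene Vps18 (1.29-fold) among those that rose. With length correction Vti1b (adjusted p = 0.129) and Snap29 (0.0674) did not pass. Of 10 mitophagy genes 2 rose, Tomm7 (1.86-fold) and the kinase gene Pink1 (1.60-fold), and 2 fell. These shares of 20.0% each way were near the 16.2% higher and 15.5% lower of all genes, and with length correction 2 rose and 1 fell. The deubiquitinase gene Usp15 fell 1.40-fold, but its length-corrected log2 difference was 0.01.

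Of 16 genes of mTORC1 and its activators 5 rose (31.2%, against 16.2% of all genes) and 2 fell (12.5%, against 15.5%). The Rag GTPase genes Rraga (1.90-fold) and Rragc (1.45-fold), which carry amino acid signals, rose in both fits, and Lamtor4 of the Ragulator complex (1.52-fold) passed without length correction but not with it (adjusted p = 0.0735 in edgeR). Of 20 genes of mTORC1 inhibitors and AMPK 4 rose (20.0%) and 2 fell (10.0%). Sesn2, a stress-induced inhibitor, rose 1.44-fold, while Deptor, a subunit that inhibits the kinase, was 1.34-fold lower without length correction. Prkag1, an AMPK subunit, rose from 36.9 ± 1.25 CPM in DMSO to 48.1 ± 2.85 CPM in BPAP (log2 0.38, SE 0.10, edgeR adjusted p = 0.0141). With length correction Deptor and Prkag1 did not pass (edgeR adjusted p = 0.0946 and 0.348).

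Of 13 transcription factor genes 3 rose (23.1%, against 16.2% of all genes) and 2 fell (15.4%, against 15.5%). The stress-response factors Atf4 (1.96-fold), Cebpb (1.84-fold) and Ddit3 (1.72-fold), the last encoding CHOP, rose in both fits. Atf4 had 328, 336 and 327 CPM in DMSO and 613, 670 and 660 CPM in BPAP (log2 0.97, SE 0.08, edgeR adjusted p = 0.000176). All 3 BPAP values of Atf4 were well above the controls. Mitf, a relative of TFEB, fell by 0.52 on the log2 scale (SE 0.11, edgeR adjusted p = 0.00621), and Foxo3, a forkhead factor that activates autophagy genes, fell by 0.41 (SE 0.08, adjusted p = 0.00630). Both passed with length correction too (adjusted p = 0.0124 and 0.0177). Tfeb and Tfe3, whose proteins bind the CLEAR core, had log2 differences of -0.15 (SE 0.12) and 0.08 (SE 0.11) and did not pass (edgeR adjusted p = 0.367 and 0.618). These 4 genes were named after their values were seen. Sqstm1, Snap29, Cebpb and Ddit3 overlap a gene on the opposite strand, as do 7 of the 34 genes.

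**Figure D5:**
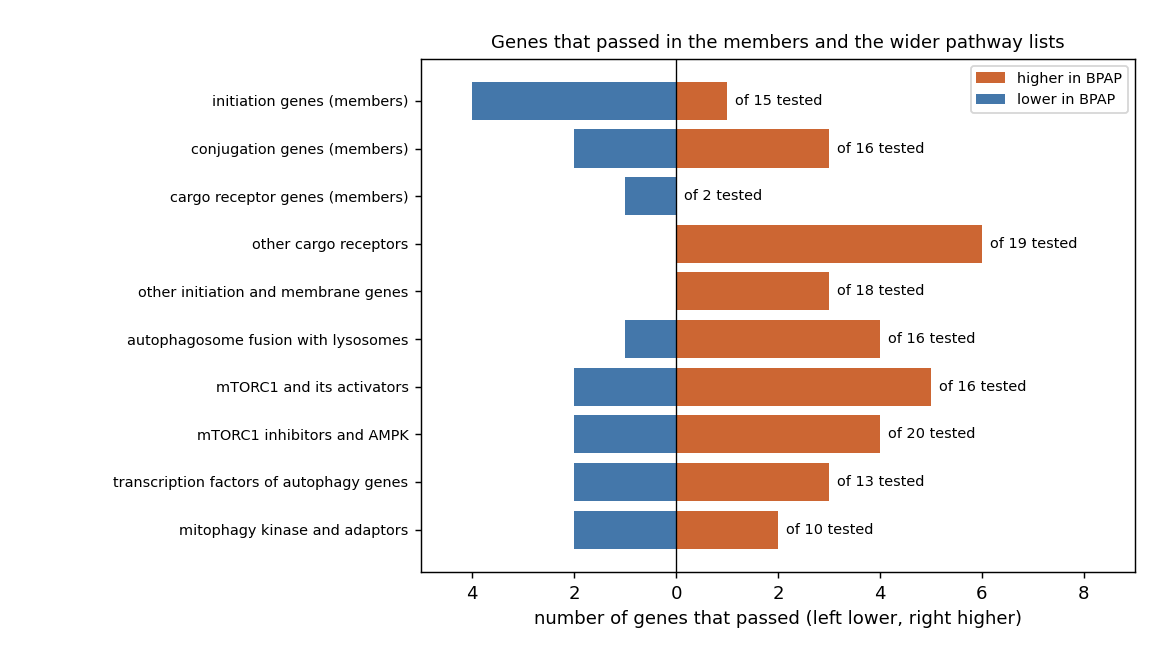
The number of genes that passed an adjusted p of 0.05 in edgeR without length correction is drawn as bars, to the right for higher and to the left for lower in BPAP, for the 3 steps of the autophagy genes and the 7 wider lists, with the number tested beside each bar. The initiation genes show 1 higher and 4 lower of 15, and the other cargo receptors 6 higher and 0 lower of 19.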

How the data were processed

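RNA from 6 libraries was sequenced after TRIzol extraction and preparation with the VAHTS Universal V6 kit, per the labels' protocols. The authors deposited 1 table with a raw read count and an FPKM value per gene and library. Per the submitters' processing notes, HISAT2 2.0.4, StringTie 1.3.3b and edgeR were used with build GRCm38, with no role given. The sources used here do not give the strand setting, the annotation release or how multiply matching reads were handled. Coordinates are those of the deposited table.

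All main tests ran on the deposited counts. The default filter of edgeR 4.0.16 (R 4.3.3) left 11711 genes, libraries were scaled by TMM, and edgeR's quasi-likelihood test with robust dispersions compared BPAP with DMSO, without covariates. P-values were 2-sided with Benjamini-Hochberg adjustment over all tested genes, called at 0.05, and standard errors were the log2 fold change divided by the root of F. The code was tested on simulated data. The length-corrected fit used a lowess trend (span 0.3) of each library on merged exon length and GC content from GENCODE M21 as an offset for 11665 genes. Near-identical copies were sought with blastn 2.17.0 (at least 95% over 200 bases).

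The alternatives were DESeq2 1.42.0, its size factors or upper quartile scaling, no filter, limma-voom and limma-trend on log2(FPKM + 1) (limma 3.58.1), the deposited FPKM length in the trend, a block for replicate number, and leaving out each library in turn. All 34 members are given. Values per library are given for called members and for up to 2 others per group with the highest mean count, and up to 3 called genes of each wider list are named by the smallest p. Atg4a-ps, the sequences shown and the level order were chosen after values were seen. The members and lists were chosen with earlier results of these data known. The same-numbered libraries had correlations of 0.10, 0.05 and 0.01 between their deviations from the group means, so numbers were not taken to pair them.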

Additional observations from a re-analysis of the deposited data

How the results depend on the processing

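Without length correction, 4 autophagy genes rose and 7 fell. The counts were 3 to 5 and 5 to 8 in the fits without 1 library, and the alternatives of scaling, filter and tool gave 4 or 5 and 7 or 8. Over all genes, the 1901 that rose were 1244 without DMSO replicate 1. With the replicate block, which the numbers do not justify as a pairing, 5 rose and 8 fell. Length correction gave 2 and 5, with the replicate block 1 and 5, and without 1 library 0 to 2 and 3 to 5 (added after the data were seen). The FPKM length gave 4 and 5. Among initiation genes 0 rose with length correction, with it and the block, with the FPKM length, and 0 to 1 without 1 library. Among conjugation genes 1 rose with length correction and the block, 1 fell with the FPKM length, and 1 to 2 fell without 1 library. Cargo receptors that fell were 0 with length correction, with or without the block. Of the 11 genes called, 8 were called in all 6 fits without 1 library, the exceptions being Atg101, Atg2a and Atg4a. Atg14 passed under DESeq2 size factors, the block, limma-voom, limma-trend, both length trends and without BPAP replicate 3 (adjusted p = 0.0348), Gabarapl1 under upper quartile scaling (0.0432), the block (0.0158) and without BPAP replicate 1 (0.0491), Atg2b (0.0213) and Atg3 (0.0464) without BPAP replicate 2, and Atg7 with the FPKM length (0.0334). Gabarapl2 did not pass with length correction and the replicate block (0.0502).

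The log2 differences that changed sign belonged to genes that passed in neither fit. Those with length correction, and with it and the block, were 0.0541 and 0.0489 for Ulk2, 0.108 and 0.103 for Uvrag, 0.0359 and 0.0314 for Atg2b, -0.0651 and -0.0656 for Wipi1 and 0.0264 and 0.0238 for Atg4b, and -0.00289 for Atg10 with length correction alone. With the FPKM length they were 0.0240 for Ulk2, -0.0371 for Wipi1, -0.0930 for Atg10 and 0.0625 for Atg4b. Upper quartile scaling gave 0.0144 for Ulk2. Wipi1 was -0.00696 with DESeq2 size factors, -0.00676 with DESeq2, -0.00444 with no filter and -0.0226 with limma-trend, where Wipi2 was -0.0103. Without 1 library the ranges that crossed 0 were -0.0945 to 0.0423 for Ulk2, -0.100 to 0.0469 for Uvrag, -0.0295 to 0.0282 for Wipi1, -0.0428 to 0.0985 for Wipi2 and -0.0470 to 0.200 for Map1lc3b. The cause was not tested. Over all genes the median log2 fold change stayed between -0.004 and 0.039 in every fit. With 3 libraries a group and a biological coefficient of variation of 0.127, small differences may not have been detectable.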
